A study of Mus musculus with 6 samples.

Results

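Messenger RNA of 8 circadian output transcription factors was followed in colon tumours of mice that lack or carry Trim21, a ubiquitin ligase and cytosolic antibody receptor. The 8 genes are Dbp, Tef, Hlf, Nfil3, Bhlhe40, Bhlhe41, Ciart and Rora, out of 26214 features in the deposited counts. They were chosen by gene family and on their CPM (read counts scaled to library size) in the comparison of knockout with wild type, so that comparison is given for them as a description, with no test. The 6 libraries came from tumours of Trim21 -/- mice (knockout, n = 3) and of Trim21 +/+ mice (wild type, n = 3). All mice had received AOM, the carcinogen azoxymethane, and DSS, the colon irritant dextran sulfate sodium, which together model colitis-associated colorectal cancer. Strain, sex, age, the deleted part of Trim21 and the hour of tissue collection are not given in the labels used here. The samples are labelled biological replicates, but the labels do not tie each to its own mouse, so errors and p-values reflect only how far these samples differ, which may be partly technical.

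The mammalian clock is a feedback loop in which CLOCK and BMAL1 (the product of Arntl) activate genes through E-box sequences, and the PER and CRY proteins they induce shut them off. The loop passes time of day on to the tissue through transcription factors that are themselves rhythmic. DBP, TEF and HLF, the PAR bZIP family, activate genes through D-box sequences, and NFIL3 represses through the same sites at the opposite phase. BHLHE40 and BHLHE41 compete for E-boxes, CIART binds to and represses CLOCK-BMAL1, and RORA activates Arntl and Nfil3 through ROR elements. In the gut these factors are known for rhythmic drug metabolism and transport in the epithelium, and Nfil3, Rora and Bhlhe40 also for roles in lymphocytes.

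The promoters were searched for the elements through which clock factors are known to act. Of the 8 genes, 7 had entries in RefSeq's promoter table of GRCm38.p6, with 8 start sites, each covered by 300 bases from 250 before to 50 after the start. Searched on both strands were the E-box CACGTG, the D-box TTANGTAA and the ROR core AGGTCA, none of which overlapped another. Ciart, which feeds back on CLOCK-BMAL1, held 3 E-boxes, starting 116, 58 and 44 bases before its RefSeq start. The near pair begin 14 bases apart. Its upstream stretch is shown because it is the densest of the family. It reads 5′ to 3′ on the minus strand of chr3:95882252-95882478, with E-boxes in capitals.
Ciart: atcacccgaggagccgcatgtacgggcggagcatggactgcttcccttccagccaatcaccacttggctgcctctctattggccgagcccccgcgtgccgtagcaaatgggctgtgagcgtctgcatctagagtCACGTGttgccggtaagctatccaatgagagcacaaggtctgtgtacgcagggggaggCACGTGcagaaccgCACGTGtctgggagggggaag

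Distances are counted from the RefSeq start sites, which can differ from the GENCODE gene starts given with each gene below. The GENCODE start lies 23 bases further upstream for Ciart, 34 for Nfil3, 138 for Bhlhe41 and 159 for Dbp. It lies 252 and 8993 bases further upstream for the first and second Tef sites. Some stretches, and much of the Dbp window, therefore lie partly or wholly within the GENCODE gene. Single matches stood in 4 other promoters, shown as stretches of 30 bases on the gene's strand with the match in capitals. Both Tef start sites had an E-box, 127 and 138 bases upstream (chr15:81802534-81802563 and chr15:81811264-81811293, plus strand). Bhlhe41 had an E-box 153 bases upstream (chr6:145865556-145865585, minus strand). Nfil3 had a ROR core, read here as its reverse complement TGACCT, 12 bases upstream (chr13:52981034-52981063, minus strand).
Tef start site 1: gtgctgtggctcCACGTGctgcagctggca
Tef start site 2: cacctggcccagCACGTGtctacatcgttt
Bhlhe41: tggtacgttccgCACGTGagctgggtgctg
Nfil3: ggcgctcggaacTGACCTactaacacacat

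Of all 32851 promoter windows in the table, 7.15% held this E-box, 0.0883% held it 3 or more times, 2.32% held the D-box and 16.3% the ROR core. The windows of Dbp, Hlf and Rora held none of these letters, and no window of the 7 genes held the D-box. A match is a run of letters and not a measured binding site. Elements outside these windows were not searched.

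Depth differed between the groups, with total counts of 17937821 to 19987295 in the knockout and 27085599 to 29742757 in the wild type. Trim21 measured 12.1, 18.9 and 12.8 CPM in knockout replicates 1 to 3 and 29.8, 20.3 and 19.5 CPM in wild-type replicates 1 to 3, lower but present in the knockout. Of the 16281 genes tested with edgeR's quasi-likelihood test, 0% passed at an adjusted p under 0.05, against 1750 genes (10.7%) at an unadjusted p under 0.05. DESeq2 called 335 genes, 1.96% of those it gave an adjusted p, and limma-voom 0. Every knockout library exceeded every wild-type library for 9.43% of the genes and lay below every wild-type library for 8.47%. Epithelial markers marked all libraries as epithelial tissue, with Krt8 at 1759 ± 89.7 and Cdh1 at 1574 ± 113 CPM in the knockout, against 1588 ± 213 and 1602 ± 18.1 CPM in the wild type (± SD, 3 libraries per group).

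All 8 factors were detected in every library and passed the filter on low counts. All 8 had a higher fitted level in the knockout, by log2 fold changes of 0.07 to 1.45 with a median of 0.20, where the median of all genes tested was −0.01 and 47.9% lay above 0. For 3 of the 8, Tef, Hlf and Bhlhe40, every knockout library lay above every wild-type library, beside 9.43% of all genes tested, and for the other 5 the groups overlapped. In 4 of the 8 the direction turned when a single library was left out. The 3 PAR bZIP activators had the largest differences, and the 5 other factors differed by 0.21 or less.

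**Figure D1:**
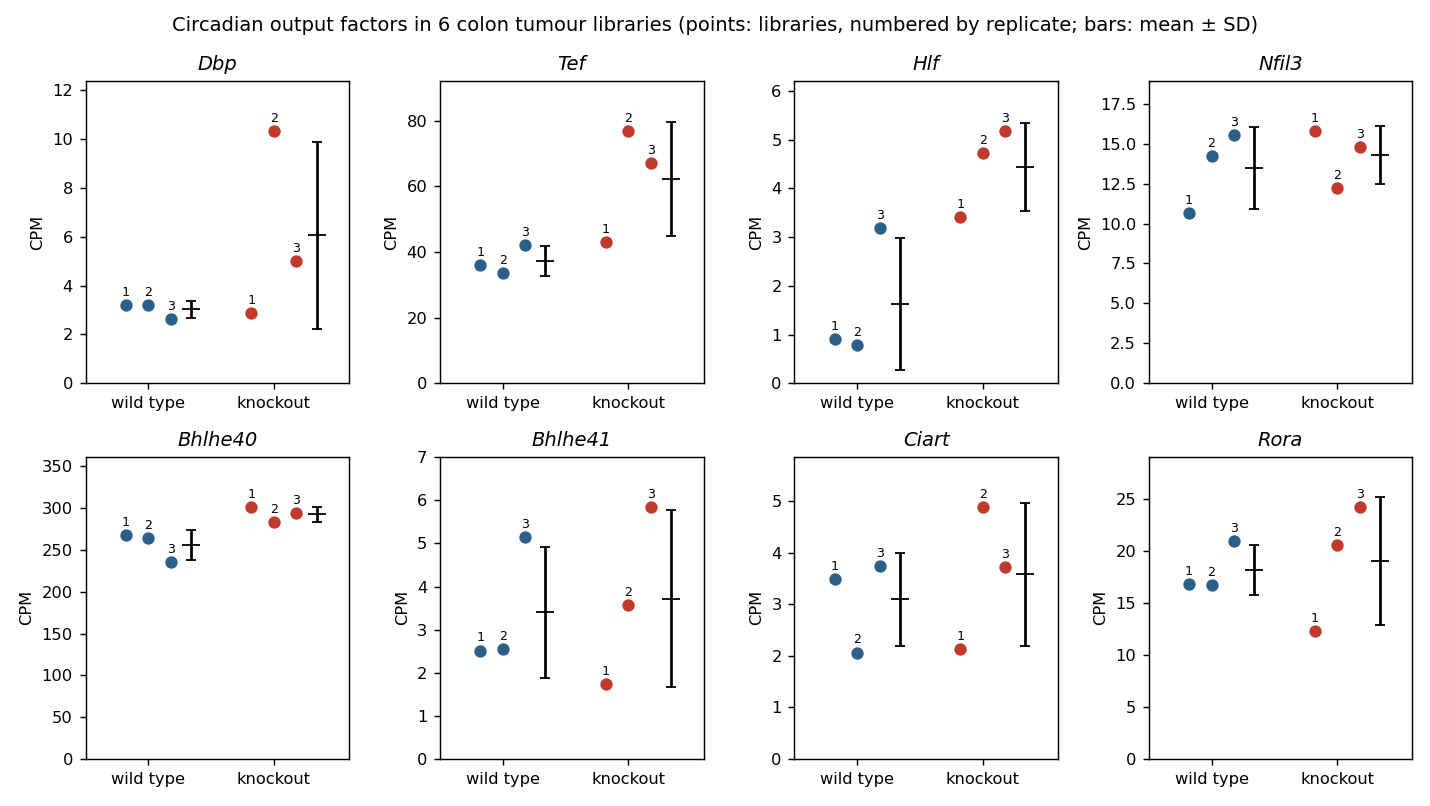
CPM of the 8 factors in the 3 wild-type (blue) and 3 knockout (red) libraries, numbered by replicate, each panel with its own axis from 0, and mean ± SD in black. Tef, Hlf and Bhlhe40 are higher in every knockout library than in any wild-type library, and Dbp is high in knockout replicates 2 and 3 only.

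Among the PAR bZIP activators, Tef had most of the reads. Tef spans 81802421 to 81826863 on the plus strand of chromosome 15 (mm10, as for all genes here). It measured 43.0, 76.8 and 67.0 CPM in knockout replicates 1 to 3 and 35.99, 33.5 and 42.2 CPM in wild-type replicates 1 to 3. Knockout replicates 2 and 3 stood well above the wild type, while knockout replicate 1 lay just above wild-type replicate 3. The fitted difference was a log2 fold change of 0.74 (standard error, SE, 0.22), or 1.67-fold, on means of 62.3 ± 17.4 and 37.3 ± 4.47 CPM (SD, n = 3). It lay between 0.56 and 0.96 when single libraries were left out. Tef made up 83.6% to 87.2% of the summed CPM of Dbp, Tef and Hlf in the knockout and 87.9% to 89.7% in the wild type. These shares count reads and are not scaled to exon length, which is 7.867 kb for Tef, 6.681 kb for Hlf and 2.993 kb for Dbp.

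Hlf, the PAR bZIP factor also known from leukaemic gene fusions and stem cells, had the largest fold difference on few reads. The gene is on chromosome 11 from 90336536 to 90390895, minus strand. Its 69, 86 and 100 reads in the knockout and 27, 23 and 86 reads in the wild type gave 3.42, 4.72 and 5.17 CPM and 0.906, 0.779 and 3.19 CPM. The groups did not overlap, but wild-type replicate 3 reached nearly the level of knockout replicate 1. Their exact Poisson 95% intervals, which cover counting error only, were 2.55 to 3.94 and 2.66 to 4.33 CPM. The log2 fold change was 1.45 (SE 0.57), or 2.74-fold, and it was 2.39 without wild-type replicate 3.

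Dbp, the factor of the family best known for steep daily rhythms, differed mainly through a single library. It lies on chromosome 7 from 45705088 to 45710203, plus strand. The knockout libraries held 58, 188 and 97 reads, or 2.88, 10.3 and 5.02 CPM, and the wild-type libraries 96, 95 and 71 reads, or 3.22, 3.22 and 2.63 CPM. Knockout replicate 2 was 3.59 times as high as knockout replicate 1, which fell inside the wild-type range, whereas the wild-type libraries spanned 1.22 times. The interval of knockout replicate 2, 8.90 to 11.9 CPM by exact Poisson counting, met that of no other library. The log2 fold change was 1.00, or 2.00-fold (SE 0.45), and it came to 0.38 without knockout replicate 2, or to 1.35 without knockout replicate 1, when the groups no longer overlapped. Exons of Sphk2 on the opposite strand cover 18.01% of the exon length of Dbp, and the strand setting of the counts is not given. Sphk2 itself measured 34.6 ± 2.76 CPM in the knockout, against 29.9 ± 2.48 CPM in the wild type (± SD, 3 libraries per group).

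The D-box repressor Nfil3 did not separate the groups. On chromosome 13 from 52967209 to 52981073, minus strand, it measured 15.8, 12.2 and 14.8 CPM in the knockout, against 10.6, 14.3 and 15.6 CPM in the wild type. Its log2 fold change was 0.08 (SE 0.19), and −0.06 without wild-type replicate 1. Knockout replicate 2, highest of all libraries for Dbp and Tef, had the lowest Nfil3 level of the knockout.

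Of the E-box repressors, Bhlhe40 was the most abundant and the most even of the 8 factors. It is also known as a gene induced by hypoxia and by immune activation, and it lies on chromosome 6 from 108660629 to 108666925, plus strand. It measured 301, 283 and 294 CPM in the knockout against 268, 264 and 235 CPM in the wild type. The groups did not overlap, although the difference was small, a log2 fold change of 0.20 (SE 0.08), or 1.15-fold. The spread within each group was also small, with a coefficient of variation of 3.08% in the knockout and 6.99% in the wild type. Left-out libraries put the log2 fold change between 0.14 and 0.23.

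Bhlhe41, its paralogue on the same chromosome from 145858243 to 145865558 on the minus strand, varied far more within each group than between them. It measured 1.74, 3.57 and 5.84 CPM in the knockout, against 2.52, 2.54 and 5.15 CPM in the wild type, on 35 to 139 reads. The knockout held both the lowest and the highest library. The log2 fold change was 0.13 (SE 0.50), and it was −0.36 without knockout replicate 3, but 0.55 without wild-type replicate 3. An annotated feature on the opposite strand, Gm43909, covers 19.0% of its exon length.

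Ciart and Rora likewise overlapped between the groups. Ciart, on chromosome 3 from 95878503 to 95882251 on the minus strand, measured 2.13, 4.89 and 3.72 CPM in the knockout, against 3.49, 2.07 and 3.74 CPM in the wild type. Its log2 fold change was 0.21 (SE 0.39), and −0.08 without knockout replicate 2. Rora, a nuclear receptor gene on chromosome 9 from 68653786 to 69388246 on the plus strand, measured 12.3, 20.6 and 24.2 CPM in the knockout, against 16.8, 16.7 and 20.98 CPM in the wild type. Its log2 fold change was 0.07 (SE 0.25), and −0.15 without knockout replicate 3. Knockout replicate 1 was the lowest of the 6 libraries for Rora and for Bhlhe41, and second lowest for Ciart after wild-type replicate 2.

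Levels were compared between the factors as CPM per kilobase of merged exon length in GENCODE M21, averaged over the 6 libraries. Bhlhe40 stood at 58.3 ± 5.09, above every other factor in 6 of 6 libraries. Nfil3 at 6.85 ± 1.002 and Tef at 6.32 ± 2.26 followed, and their order was reversed in 2 of the 6 libraries. Dbp at 1.52 ± 0.99, Ciart at 1.48 ± 0.48 and Rora at 1.42 ± 0.32 formed a group with no order beyond the spread. Bhlhe41 at 0.53 ± 0.24 and Hlf at 0.45 ± 0.28 were lowest (SD over 6 libraries of both genotypes). Exon length was taken over all annotated transcripts, so a gene that uses a short transcript is underestimated.

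**Figure D2:**
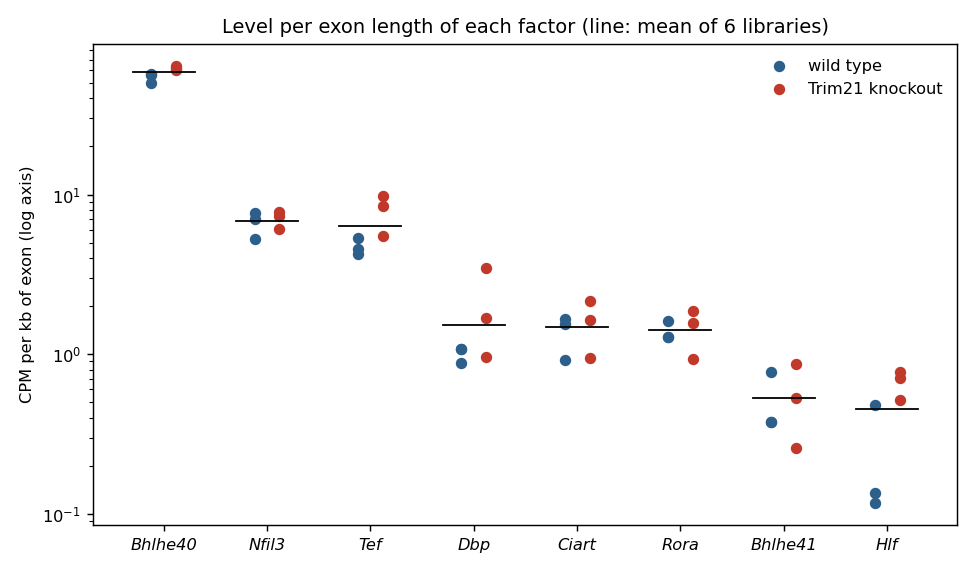
CPM per kilobase of exon on a log axis for each factor, ordered by the mean of the 6 libraries (black line), with wild-type libraries in blue and knockout libraries in red. Bhlhe40 stands alone at 58.3, Nfil3 and Tef lie near 6.85 and 6.32, and Hlf and Bhlhe41 are lowest.

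Over the 6 libraries, 28 pairs of factors were compared by Pearson's r and Spearman's rho of log2 CPM, with exact permutation tests over the 720 orders of the libraries and Benjamini-Hochberg adjustment over the 28 pairs. None passed an adjusted 0.05 by either measure. The orders were shuffled across both genotypes, so a difference between the groups that a pair shares counts as likeness. The factors were also chosen on these values, so the p-values are given as a description only. Bhlhe41 and Rora were the most alike, with r = 0.96 (exact permutation p = 0.00278, adjusted 0.0778) and rho = 0.94 (exact permutation p = 0.0167, adjusted 0.233). Their r was 0.92 without the 2 libraries farthest from the median of Bhlhe41, and 0.96 after subtraction of each group's mean. Tef and Hlf had r = 0.84 (exact permutation p = 0.0736, adjusted 0.60) and rho = 0.94 (exact permutation p = 0.0167, adjusted 0.233). Without the 2 libraries farthest from the median of Tef their r was 0.99, and with group means subtracted 0.58. Dbp and Tef had r = 0.86 (exact permutation p = 0.0292, adjusted 0.408) but rho = 0.54 (exact permutation p = 0.297, adjusted 0.757), and r turned to −0.88 without the 2 farthest libraries, so the relation rests on these 2. Within a genotype, 3 libraries are too few for a correlation.

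**Figure D3:**
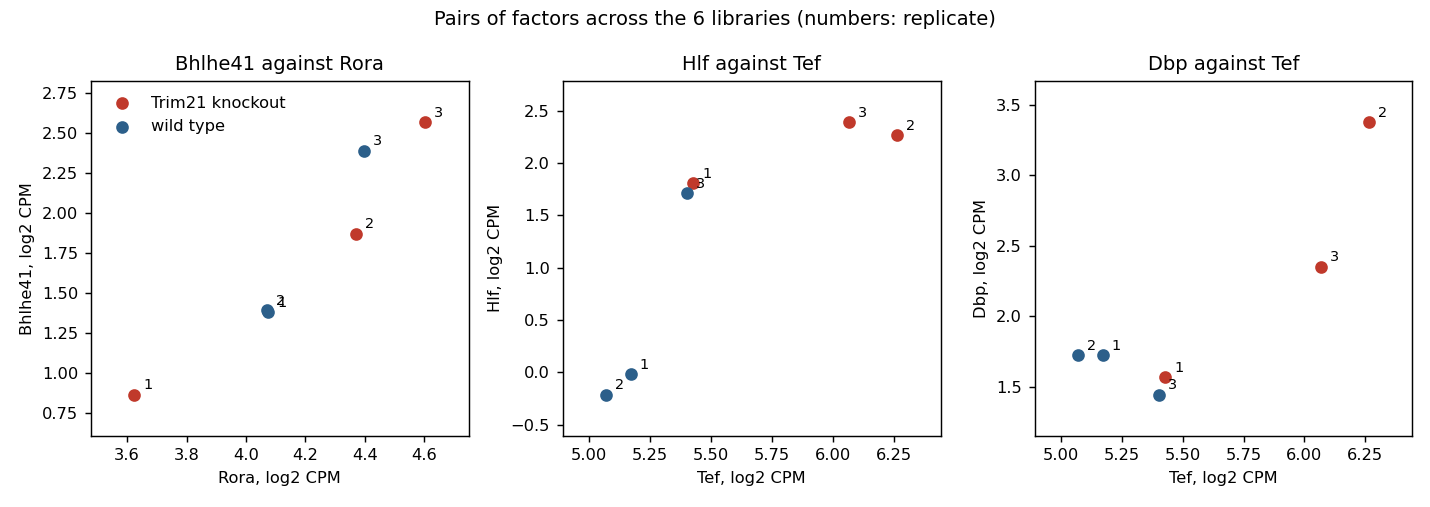
Log2 CPM of Bhlhe41 against Rora, Hlf against Tef and Dbp against Tef in the 6 libraries, knockout in red and wild type in blue, with replicate numbers. Bhlhe41 and Rora are high and low in the same libraries of both genotypes, whereas the slope of Dbp on Tef is carried by knockout replicates 2 and 3.

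The genes most like Dbp across the 6 libraries, among 12416 with a mean of at least 5 CPM, were Hoxd10 (r = 0.99), Hoxd11 (0.99), Kctd12b (0.98), Ist1 (0.97) and Ptgs1 (0.97). Hoxd10 and Hoxd11, positional genes of the posterior body axis, had 22.0 and 22.5 CPM in knockout replicate 2 against at most 5.74 CPM in any other library. Kctd12b had 20.4 CPM there and 10.2 to 15.3 CPM elsewhere. Ptgs1, the constitutive prostaglandin synthase, had 41.5 CPM there and 26.0 to 31.6 CPM elsewhere. Ist1, a membrane-remodelling gene, ranged only from 132 to 146 CPM. Knockout replicate 2 was thus the highest library for Dbp and for each of these 5 genes. Among clock genes, Tef ranked 126th of the 16280 other tested genes in likeness to Dbp, Per3 379th with r = 0.77 and Nr1d2 533rd with r = 0.73. At the other end Npas2, a CLOCK paralogue, had r = −0.48 and Nfil3 r = −0.36. These values describe 6 libraries that all pairs share.

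Core clock genes were read beside the output factors as a list of 15, all tested, of which 0 passed edgeR's test over all genes in either direction. DESeq2 called 3 of them, Per2, Per3 and Cry1, all higher, limma-voom called 0, and 5 had an unadjusted edgeR p under 0.05. Over all genes DESeq2 called 1.96%, and 10.7% had such an unadjusted p. Groups did not overlap for 4 genes with the knockout above (9.43% of all genes), Per1, Per2, Per3 and Cry1, and for 2 with the knockout below (8.47% of all genes), Arntl2 and Csnk1e. The list median was a log2 fold change of 0.06, with 10 genes above 0 and 5 below.

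The period genes, which encode the repressors of CLOCK-BMAL1, had the largest differences. Per2 measured 51.9, 65.7 and 79.9 CPM in the knockout, against 19.1, 35.4 and 26.1 CPM in the wild type, a log2 fold change of 1.29 (SE 0.25, edgeR adjusted p = 0.322). Per3 measured 26.1, 37.2 and 39.5 CPM against 15.7, 19.5 and 15.5 CPM, and Per1 24.6, 27.2 and 26.2 CPM against 12.04, 19.7 and 18.2 CPM. Their log2 fold changes were 1.02 (edgeR adjusted p = 0.322) and 0.64 (0.374). Cry1, the repressor that acts late in the cycle, measured 33.8, 31.0 and 33.6 CPM against 22.8, 19.7 and 25.1 CPM (0.54, edgeR adjusted p = 0.334).

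Other E-box driven clock genes had smaller differences than Per1, Per2 and Per3. Nr1d1 and Nr1d2, which encode the REV-ERB repressors, had log2 fold changes of −0.14 and 0.04, and Cry2 had 0.23. The list of 6 E-box driven clock genes (Per1, Per2, Per3, Cry2, Nr1d1, Nr1d2) had a median of 0.43 with 5 above 0. The list of 4 clock genes under ROR elements (Arntl, Npas2, Clock and Cry1) had a median of 0.18, with 2 above 0 and 2 below. Arntl, which encodes BMAL1, measured 29.7 ± 3.37 CPM in the knockout, against 23.2 ± 5.53 CPM in the wild type (± SD, 3 libraries per group), and Npas2 measured 19.9 ± 5.07 and 19.9 ± 6.41 CPM. Clock had −0.15, its partner paralogue Arntl2 −0.55 and the kinase gene Csnk1e −0.26. The kinase gene Csnk1d (0.02) and the ubiquitin ligase gene Btrc (0.06), whose products act on PER protein, lay near 0.

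**Figure D4:**
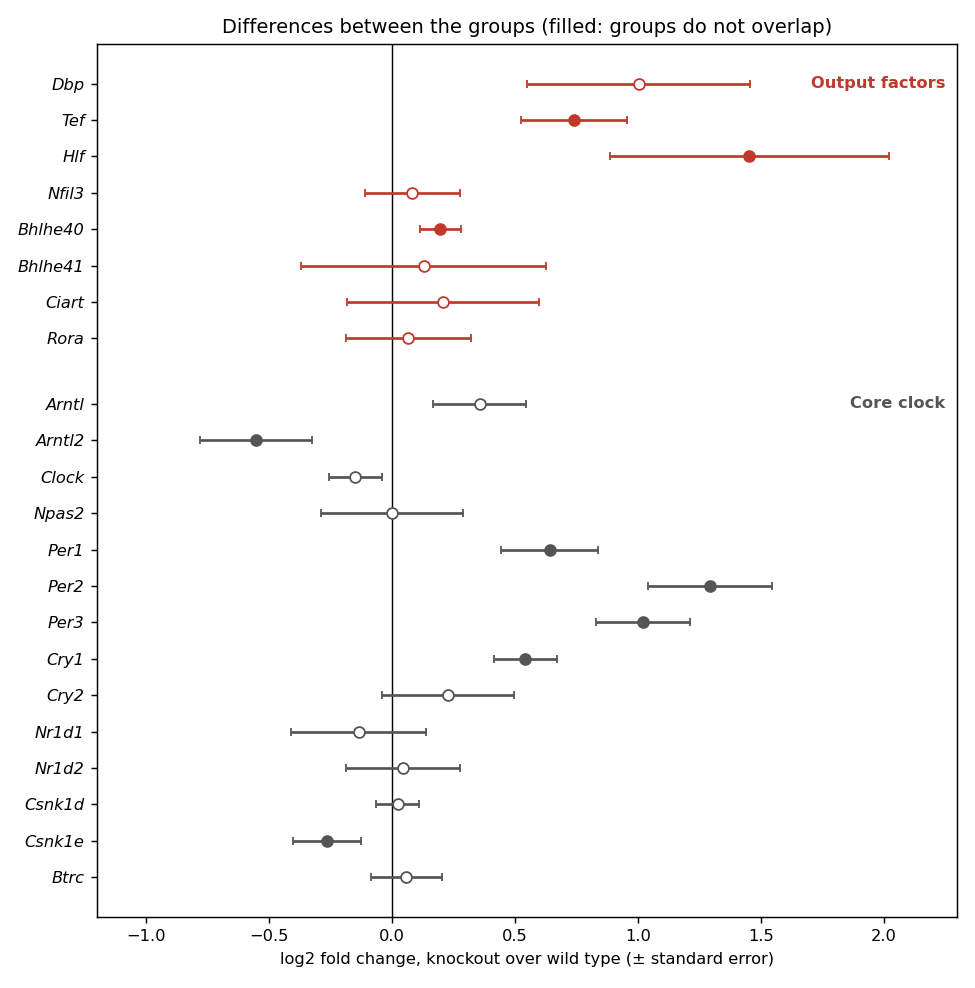
Log2 fold change of knockout over wild type with its standard error for the 8 output factors (red) and core clock genes (grey), filled where the 3 knockout and 3 wild-type libraries do not overlap. Dbp, Tef, Hlf, Per1, Per2 and Per3 lie right of 0 by 0.64 to 1.45, while Nfil3, Rora, Ciart, Bhlhe41, Nr1d1 and Nr1d2 lie near 0.

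Rorb, a paralogue of Rora, had few reads, with 13, 23 and 24 in the knockout and 8, 4 and 7 in the wild type. Its groups did not overlap, at a log2 fold change of 2.22 (SE 0.52, edgeR adjusted p = 0.334).

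Known targets of the PAR bZIP factors, among them genes of drug metabolism and transport in the liver and gut, split in direction. Of 11 listed, 8 were tested and 0 passed edgeR's test. DESeq2 called 2 of them (1.96% of all genes) and limma-voom 0, and 3 had an unadjusted edgeR p under 0.05 (10.7% of all genes). The median was 0.03, with 4 above 0 and 4 below, and −0.19 with DESeq2 or with no filter on low counts. Those above 0 were also the 4 whose groups did not overlap, as for 9.43% of all genes with the knockout above. Cyp3a13, a cytochrome P450, measured 38.4, 42.1 and 60.1 CPM against 15.3, 14.96 and 11.3 CPM (edgeR adjusted p = 0.241). The drug efflux pump gene Abcb1a measured 134, 119 and 178 CPM against 59.6, 71.6 and 102 CPM (adjusted p = 0.338), and Ppara, a fatty acid sensor, 14.5, 8.24 and 11.6 CPM against 2.65, 6.23 and 7.90 CPM (adjusted p = 0.438). The haem synthesis gene Alas1 was the fourth (log2 fold change 0.25), while Por (−0.23), Nr1i3 (−0.19), Pdxk (−0.42) and Cyp2b10 (−1.60) lay below 0. Cyp2b10 measured 2.28, 2.91 and 0.879 CPM against 2.01, 2.71 and 13.7 CPM (SE 0.81). Its difference thus rested mainly on wild-type replicate 3. Cyp2a4, Cyp2a5 and Cyp3a11 had 1 to 5 reads over all libraries.

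Other inputs and outputs of the clock gave no call by edgeR or limma-voom. Of 9 further clock-controlled genes, 6 lay above 0 (median 0.14, 1 with an unadjusted edgeR p under 0.05, 0 called by DESeq2). The members with the smallest p were Lonrf3 at 49.0 ± 5.96 and 35.9 ± 8.55 CPM, Cys1 at 1.28 ± 0.70 and 0.523 ± 0.24 CPM, and the sodium-proton exchanger gene Slc9a3 at 433.9 ± 55.6 and 660.0 ± 313 CPM in knockout and wild type. Of 10 glucocorticoid-induced genes, 6 lay above 0 (median 0.24, or 0.08 without knockout replicate 3). An unadjusted edgeR p under 0.05 was found for 2 of them, as for 10.7% of all genes. Sgk1 and Fkbp5, called by DESeq2, measured 123 ± 24.6 and 87.3 ± 14.0 CPM in the knockout, against 50.05 ± 10.9 and 38.3 ± 19.3 CPM in the wild type, without overlap. Errfi1 measured 135 ± 30.6 and 108 ± 3.42 CPM (SD, n = 3 each). The edgeR adjusted p of Sgk1 and Fkbp5 were 0.322 and 0.388. Over all genes, DESeq2 called 1.96%, and every knockout library exceeded every wild-type library for 9.43%. Of 10 hypoxia targets, which Bhlhe40 is known to accompany, 4 lay above 0 and 6 below (median −0.06, or 0.08 without wild-type replicate 3, 1 with an unadjusted edgeR p under 0.05, 0 called by DESeq2). Adm measured 5.15 ± 0.40 CPM in the knockout, against 8.72 ± 1.26 CPM in the wild type, Ero1a 173 ± 28.7 and 203 ± 3.08 CPM, and Vegfa 120 ± 10.9 and 109 ± 13.2 CPM.

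Markers of other cell types also differed between the groups, and their part in the values of the output factors was not tested. In bulk tissue, fewer cells of a type and less RNA per cell cannot be told apart. Of the smooth muscle markers, 10 of 10 lay above 0, and Myh11 and Acta2 were the most abundant. Summed marker CPM did not overlap for smooth muscle (941 to 1520 in the knockout, 343 to 855 in the wild type). It did not overlap for mature colonocytes (872 to 1102 and 471 to 779; 7 of 8 above 0), macrophages (322 to 457 and 293 to 304; 8 of 8 above 0, C1qb and C1qa most abundant) or plasma cells (1507 to 3774 and 859 to 1249; 6 of 7 above 0, Jchain and Xbp1 most abundant). Of the colonocyte markers, the most abundant were Krt20 (log2 fold change −0.05) and Car1 (0.71), whose groups overlapped. Larger differences were those of Aqp8 (3.50), Car4 (2.48), Slc26a3 (2.34) and Guca2a (1.56), whose groups did not overlap and which are named after their values were seen. DESeq2 called Aqp8, Car4 and Guca2a, and edgeR none of them. DESeq2 called 1.96% of all genes, and every knockout library lay above every wild-type library for 9.43%. The difference in the plasma cell sum was mostly that of Jchain (1779 ± 1086 CPM in the knockout, 425 ± 208 CPM in the wild type). Jchain and the less abundant Mzb1 (14.7 and 3.95 CPM) did not overlap between the groups. Xbp1 (361 and 318 CPM) and Sdc1 (280 and 295 CPM) did overlap. The sums overlapped for epithelium (7031 to 7185 and 6617 to 7294; 6 of 9 above 0), fibroblasts (1610 to 2323 and 1127 to 1717; 9 of 9), endothelium (239.6 to 324 and 214 to 268; 7 of 8) and neutrophils (167 to 299.7 and 149.9 to 317; 2 of 7). They also overlapped for nerve and glia (12.2 to 20.2 and 8.32 to 16.2; 6 of 7 tested) and for innate lymphoid and T cells (172 to 596 and 271 to 347; 5 of 6 tested). The most abundant were Col3a1 and Dcn among fibroblast markers, both above 0, Pecam1 (0.28) and Cdh5 (−0.13) among endothelial markers, and S100a9 (−0.33) and Mmp9 (−0.38) among neutrophil markers. Il22 had 0 reads in each knockout library and in wild-type replicate 1, with 7 and 3 reads in wild-type replicates 2 and 3. Adipocyte markers were near 0 (0.983 to 3.67 and 1.86 to 3.08 CPM in sum, mainly Cidec and Cfd), with 7 reads of Adipoq and 3 of Plin1 in all. The innate lymphoid and T cell sum was nearly all Il1rl1, which had 162, 322 and 574 CPM in the knockout and 326, 255 and 256 CPM in the wild type. Il7r was next in abundance. Gata3 measured 2.38, 2.97 and 1.76 CPM in knockout replicates 1 to 3, against 5.53, 3.69 and 7.08 CPM in wild-type replicates 1 to 3. The Gata3 groups did not overlap, with the knockout below (edgeR adjusted p = 0.347), as for 8.47% of all genes tested. Gata3 was the 1 tested marker of this list that lay below 0.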

How the data were processed

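The 6 tumour libraries were made from total RNA after removal of ribosomal RNA. The authors deposited a table of read counts by gene symbol for each, in whole numbers. Per the submitters' processing notes, mm10, TopHat2, edgeR and limma were used, without versions or roles. Which counter, strand setting and annotation were used is not given in the sources used here.

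Counts of all genes were fitted in R 4.3.3 with edgeR 4.0.16 (quasi-likelihood test, TMM scaling, filterByExpr, group as the only term, two-sided). Benjamini-Hochberg adjustment ran over the 16281 genes tested, with a threshold of 0.05. CPM use TMM-scaled library sizes, and log2 CPM a prior count of 2. A standard error is the log2 fold change divided by the square root of F. Fits were also run on counts simulated from edgeR's own estimates for these data, with the outcome not reported here. Alternatives used DESeq2 1.42.0, limma-voom (limma 3.58.1), other scalings and filters, a replicate block and left-out libraries. Correlations used Python 3.11.15.

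Positions and exon lengths come from GENCODE M21 (GRCm38, which mm10 denotes), promoters from RefSeq. The factors and gene lists were chosen with earlier results of these data known. Genes named are the 8 factors, Trim21, core clock genes, paralogues of Rora, up to 3 per other pathway list by smallest unadjusted p, the 2 most abundant per marker list, and the 5 most like Dbp. Others were added after their values were seen, and some genes under these rules are not reported here. Ero1l was matched as Ero1a.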

Additional observations from a re-analysis of the deposited data

How the results depend on the processing

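No gene passed edgeR's test in the main analysis, and none did with other scalings, other filters, limma-voom or the replicate number as a block (0 genes under the replicate block, 1293 at an unadjusted p under 0.05). DESeq2 called 335 genes, 242 higher and 93 lower, and the cause was not tested. Leaving out single libraries gave 0 to 1 calls, the 1 higher gene without wild-type replicate 3. Deviations from the group means of same-numbered libraries correlated at −0.15, −0.17 and −0.07, and those of differently numbered libraries at −0.09 to 0.23. With only 3 libraries per group and their mean subtracted, these values cannot decide whether the numbers pair the samples. Over 13 alternatives, 97 of 104 log2 fold changes of the factors kept their sign, and Dbp, Tef, Hlf and Bhlhe40 kept it in all 13. Bhlhe41 turned in 3 (to −0.361, −0.049 and −0.045), Ciart in 2 (−0.081 and −0.016), Nfil3 and Rora in 1 each. Left-out libraries put the median of the core clock list at 0.071 to 0.134, of the ROR-element list at 0.0034 to 0.37, of the clock-controlled list at 0.063 to 0.291 of the glucocorticoid list at 0.080 to 0.342 and of the hypoxia list at −0.103 to 0.075. The median of the PAR bZIP target list was −0.19 with DESeq2 and without a filter, where genes of 5 reads or fewer enter. With 23 to 188 reads per library for Dbp and Hlf, counting error alone limits single values.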

Other observations

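Ratios of reads within a library do not depend on the scaling between libraries. The ratio of Dbp to Nfil3 reads, factors of opposite action on the D-box, came to 0.182, 0.843 and 0.339 for the knockout libraries (replicates 1 to 3) against 0.303, 0.226 and 0.169 for the wild type. The ratio of Hlf to Nfil3 was 0.217, 0.386 and 0.350 in the knockout and 0.0852, 0.0546 and 0.205 in the wild type. The groups did not overlap, but knockout replicate 1, on 69 Hlf reads, lay just above wild-type replicate 3, on 86 Hlf reads. The ratio of Tef to Nfil3 was 2.73, 6.27 and 4.53 against 3.38, 2.35 and 2.71. Dbp to Arntl, a pair of opposite phase in a running clock, gave 0.0967, 0.392 and 0.152 against 0.174, 0.147 and 0.0898. Knockout replicate 1 lay within the wild-type range of the Dbp and Tef ratios named here, and knockout replicate 2 was the highest of the 6 libraries in each ratio.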
